A study of Mus musculus with 2 samples.

Results

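The reads described here are the 36-nt sequences that no annotated mouse transcript contains. Members were all distinct sequences of exactly 36 nt, the longest length in the files, that matched no GENCODE mouse transcript in sense without a mismatch and had 10 or more reads summed over both libraries. Of 170043 distinct sequences of 36 nt, 6743 reached 10 reads, and 5957 of these were members; the other 786 matched a transcript. The files hold 1236583 distinct sequences of all lengths. The members were selected on their read counts summed over both libraries, so their levels are given as a description.

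Small RNA of 15 to 50 nt was sequenced from immortalized monoclonal lines of murine mesenchymal stem cells (MSCs), fibroblast-like cells of adult bone marrow, of the strain C57BL/6. One line was Dicer f/f, which the labels also call wild type, and the other was Dicer -/-, called null here. Each genotype had 1 library from clonal cells, so a difference between genotypes and a difference between clones or libraries cannot be told apart, and no test across genotypes was possible. The f/f library held 9943989 reads and the null library 6291599. All intervals are exact 95% intervals of counting error only, since reads copied by PCR are not independent molecules. CPM are counts scaled to the same library total, and 3 reads, the limit that a count of 0 leaves, came to 0.302 CPM for f/f and to 0.477 CPM for null. Small RNA reads do not measure the Dicer mRNA; reads of 22 nt, the usual size of mature miRNAs, were 45.6% of all reads in f/f but 10.4% in null.

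Dicer cuts precursor hairpins into mature miRNAs, which dominate the small RNA of most cells. A small RNA library also takes up pieces of tRNAs, rRNAs, Y RNAs, small nuclear RNAs (snRNAs, parts of the spliceosome) and small nucleolar RNAs (snoRNAs, which guide the modification of rRNA). When an insert is shorter than the read, sequencing runs on into the 3′ linker, and trimming has to remove the linker's bases to recover the insert.

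The sequences of the leading groups show what the members are. Members that share their first 15 nt form a group, and groups are numbered by the reads summed over both libraries. Each line gives the most read member of 1 group, 5′ to 3′. Capitals mark the last bases where they equal the first letters of CTGTA, the letters that most often followed the end of a transcript match, as described further on. These groups are shown because they had the most reads of either library, and group 13, group 17, group 18 and group 25 because they match a transcript with 1 or 2 mismatches.
group 1: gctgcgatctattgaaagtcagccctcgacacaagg
group 2: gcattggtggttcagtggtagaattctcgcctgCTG
group 3: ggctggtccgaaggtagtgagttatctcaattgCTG
group 4: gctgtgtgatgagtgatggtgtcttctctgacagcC
group 5: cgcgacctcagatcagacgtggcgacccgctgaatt
group 7: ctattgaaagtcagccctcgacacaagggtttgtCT
group 8: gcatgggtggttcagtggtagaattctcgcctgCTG
group 9: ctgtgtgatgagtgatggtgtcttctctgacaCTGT
group 11: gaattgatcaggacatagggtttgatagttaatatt
group 13: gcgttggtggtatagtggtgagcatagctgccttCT
group 14: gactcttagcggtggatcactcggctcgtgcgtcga
group 17: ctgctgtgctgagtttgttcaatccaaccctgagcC
group 18: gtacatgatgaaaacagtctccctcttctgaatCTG
group 25: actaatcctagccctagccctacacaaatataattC
The lines of group 2 and group 8 differ by 1 base, T5G, counted from the 5′ end of the group 2 sequence. Group 9 begins 1 base into the sequence of group 4, and group 7 begins 8 bases into that of group 1. The annotation used holds few nuclear tRNA genes and not the whole 45S rRNA precursor, and no genome sequence was used, so a group without a transcript match is given by its sequence and named no further. Group 6, also among the most read, is given by its counts only: the organism it comes from could not be checked with the tables used here, so its reads may not be mouse RNA.

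Members were far more frequent in null. They took 102124 reads in f/f, 1.03% of the library (1.02 to 1.03), and 558520 reads in null, 8.88% (8.86 to 8.90). In CPM this was 10270 against 88772, an 8.64-fold higher level in null (8.59 to 8.70). All reads of 36 nt showed nearly the same ratio, 8.57 (8.53 to 8.61), at 1.68% of f/f and 14.4% of null reads. Members were therefore about the same share of the 36-nt reads in both libraries, 61.3% in f/f (61.1 to 61.5) and 61.8% in null (61.7 to 61.9). Matched sequences of 36 nt with 10 or more reads were 5.94-fold higher in null (5.86 to 6.03). Relative to reads that match an annotated snoRNA or snRNA, which were themselves more frequent in null (109169 reads in f/f, 294049 in null), members were 2.03-fold higher (2.02 to 2.04).

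Of the 5957 members, 3769 had reads in both libraries, 2167 had none in f/f and 21 had none in null. The median member had 19 reads, 1 in f/f and 16 in null, and the leading one had 107510. Just inside the threshold, 632 sequences with exactly 10 reads held 645 f/f and 5675 null reads; just outside, 851 with 9 reads held 657 and 7002.

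The members formed 2955 groups, of which 2179 had a single member and 60 had 10 or more. Higher in null by more than 2-fold in CPM were 2721 groups (92.1%), and 44 were lower by more than 2-fold (1.49%), with a floor of 3 reads for a side at 0. Grouped alike, all 36-nt sequences gave 3254 higher of 3577 groups (91%) and 63 lower (1.76%). The 779 groups of matched sequences gave 679 higher (87.2%) and 22 lower (2.82%). The shares of the members' groups are thus near those of all 36-nt sequences with 10 or more reads. Members are 5957 of those 6743 sequences, so this nearness was largely fixed in advance. The groups of matched sequences, which hold no member, lay further off, at 87.2% and 2.82%. Groups of reads from 18 to 34 nt, with 10 or more reads, were less one-sided, at 71.7% higher and 19.5% lower of 28147. The median log2 ratio over the members' groups was 2.98 (quartiles 2.40 and 4.12) and over all 36-nt groups 2.88. Scaled to 36-nt reads in place of all reads, 752 groups were higher and 493 lower; this scale divides every group's ratio by the same factor, the 8.57 of all 36-nt reads. In f/f no read was found for 1030 groups, and in null for 16. Scaled to all reads, the minimum of 10 reads and the floor of 3 fix the calls of these groups. The 1030 always count as higher and the 16 always as lower.

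**Figure D1:**
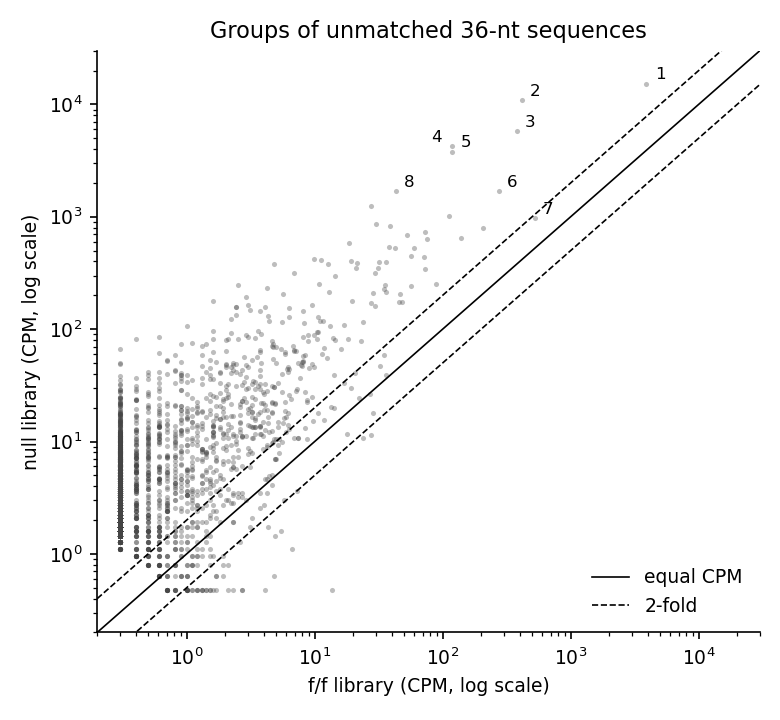
Level of each of the 2955 groups in the f/f library (x axis) and the null library (y axis), in CPM on log scales, with groups at 0 drawn at the 3-read floor; points are groups and numbers name the 8 with most reads. Most points lie above the upper dashed line of a 2-fold difference (2721 groups), group 7 lies just under it, and 44 lie below the lower one.

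Reads were concentrated in few groups, more so in f/f. Group 1 alone held 38.0% of the f/f member reads and 17.3% of those of null. The 10 groups leading in each library, which are not the same groups in both, held 60.2% of its member reads in f/f and 52.4% in null, and the 100 leading in each held 81.9% and 77.5%. Without group 1 the ratio of members was 11.5 (11.4 to 11.6) in place of 8.64.

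The working name for these reads takes them as inserts beyond the read length. Their lengths and 3′ ends were set against that name; whether it holds for a given member was not tested. Reads just under the full length were nearly absent, and those of 35 nt were listed 0 times in both libraries. Reads of 34 nt numbered 366 in f/f and 2508 in null, against 36828 and 304451 at 32 nt and 166598 and 903323 at 36 nt.

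**Figure D2:**
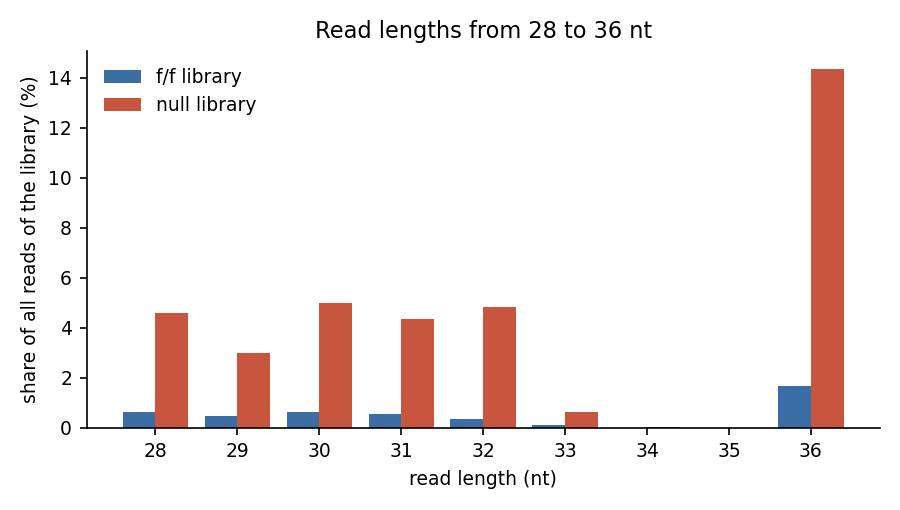
Share of all reads of each library (y axis, percent) at each read length from 28 to 36 nt (x axis), with blue bars for f/f and red bars for null. Both libraries drop from 33 to 35 nt and peak at 36 nt, at 1.68% in f/f and 14.4% in null.

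The 3′ ends of the members were then compared. For members that matched a transcript from their first base and then stopped, the letters left over at the 3′ end were read off. With 1 base left over it was C in 131 of 220 members (59.5%). With 2 left over they were CT in 140 of 266 (52.6%), with 3 CTG in 124 of 249 (49.8%) and with 4 CTGT in 42 of 169 (24.9%). With 5 left over, CTGTA ended 9 of 102 members (8.82%) and CCACT 13 (12.7%), and with 6 CCACTG ended 11 of 57 (19.3%). The last pair holds CCA, the triplet added to mature tRNAs, before CT or CTG. With 7 left over the commonest end was CTGTATG, in 9 of 43 members (20.9%), and with 8 it was ACTGTATG, in 4 of 63 (6.35%). The labels do not give the linker's sequence, so whether these letters are linker bases was not tested.

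Ends of this kind, from C to CTGTA, were counted over all members, and longer ones such as CTGTATG were not. Of all 5957 members, 1443 ended in C, 1244 in CT, 922 in CTG, 236 in CTGT and 38 in CTGTA. An end of 2 or more of these letters occurred in 2440 members (41.0%) and in 153 of the 786 matched 36-nt sequences (19.5%). The single C was about as common in both, at 24.2% and 22.3%. Counting 1 letter or more, 3883 members (65.2%) had such an end, and they held 37.5% of the member reads in f/f and 58.7% in null. Their ratio of null to f/f was 13.5, and that of the other 2074 members, with 63794 f/f and 230927 null reads, 5.72. Group 1, with 38788 f/f and 96438 null reads, had almost no such ends and held most f/f reads of those 2074 members. These shares and ratios were not computed without group 1, so the contrast may rest largely on it. When the letters were removed, 539 of the 3883 (13.9%) matched a transcript in sense. This share rose with the number of letters, from 9.08% for C to 13.6% for CT, 18.2% for CTG, 25% for CTGT and 31.6% for CTGTA. Removing the last 3 bases regardless let 601 of these members match (15.5%) and 134 of the other 2074 (6.46%). The letters CTGTA were read off the ends of these same members, so neither comparison is a test of the letters. Removing more letters also leaves a shorter stretch to match, so part of the rise is built in. The letters TCGTATG, searched for as the start of an Illumina linker, were in no member and in 1 matched sequence (0.127%). The labels do not say whether that linker was used, so this search does not settle what the end letters are.

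**Figure D3:**
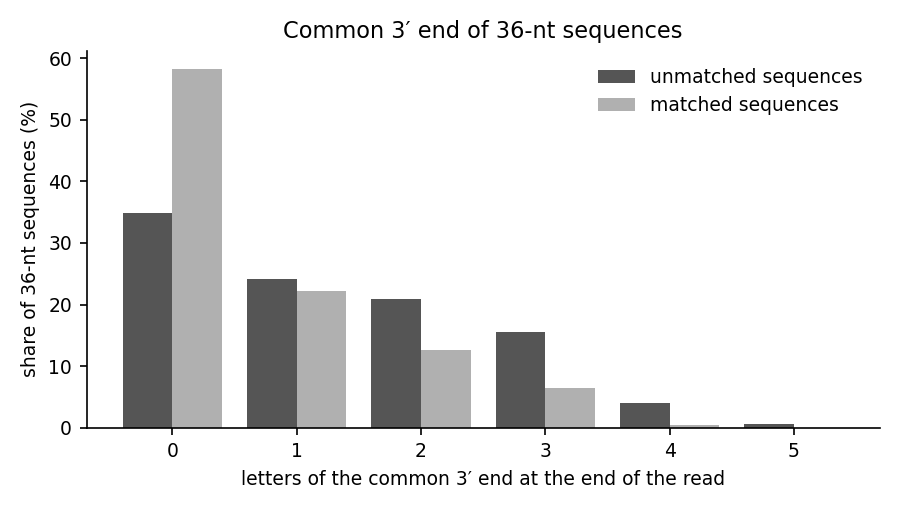
Share of 36-nt sequences (y axis, percent) by the number of letters of the common 3′ end at the end of the read (x axis), for the 5957 unmatched (dark) and the 786 matched sequences (light). Unmatched sequences exceed matched ones at 2 letters (20.9% against 12.6%), 3 letters (15.5% against 6.49%) and 4 letters (3.96% against 0.382%).

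Group 2 has members that differ only in such ends. Its shorter reads, of 18 to 35 nt, numbered 47055 in f/f and 295104 in null, with the commonest length at 31 nt in f/f (14180 reads) and at 32 nt in null (129747). As deposited, reads of 33 nt fell to 96 and 1857, and there were none of 34 or 35 nt. If the end letters are left off, member reads came to 33 nt in 1545 f/f and 30227 null reads, to 34 nt in 1143 and 17559 and to 35 nt in 925 and 14517. Only 508 f/f and 5873 null member reads of group 2 had none of the letters. Any longer end such as CTGTATG would be counted among these. The 3 most read members differed in their ends alone: with CTG the sequence had 1463 f/f and 28149 null reads, with 1 more base before CT it had 989 and 14438, and with 2 more before C it had 759 and 12083.
group 2, rank 1: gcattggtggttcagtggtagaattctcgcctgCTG
group 2, rank 2: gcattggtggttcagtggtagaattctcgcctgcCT
group 2, rank 3: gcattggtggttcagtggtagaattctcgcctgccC

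Group 3, nearest to the Y RNA Rny1, was counted in the same way. Its shorter reads peaked at 30 nt, with 12475 reads in f/f and 57709 in null, and as deposited none had 33, 34 or 35 nt. Member reads less their end letters came to 33 nt in 1466 f/f and 16040 null reads, and to 34 nt in 1295 and 12331. In group 4 the same sum gave 35 nt in 746 of 1173 f/f and 18051 of 26565 null reads, while deposited reads from 28 to 34 nt were at most 5 in f/f and 172 in null at any length. In group 5 most reads had none of the letters, 890 of 1185 in f/f and 15290 of 23881 in null. In group 1 ends of this kind made up only 0.253% of the reads, the fewest of the first 5 groups.

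**Figure D4:**
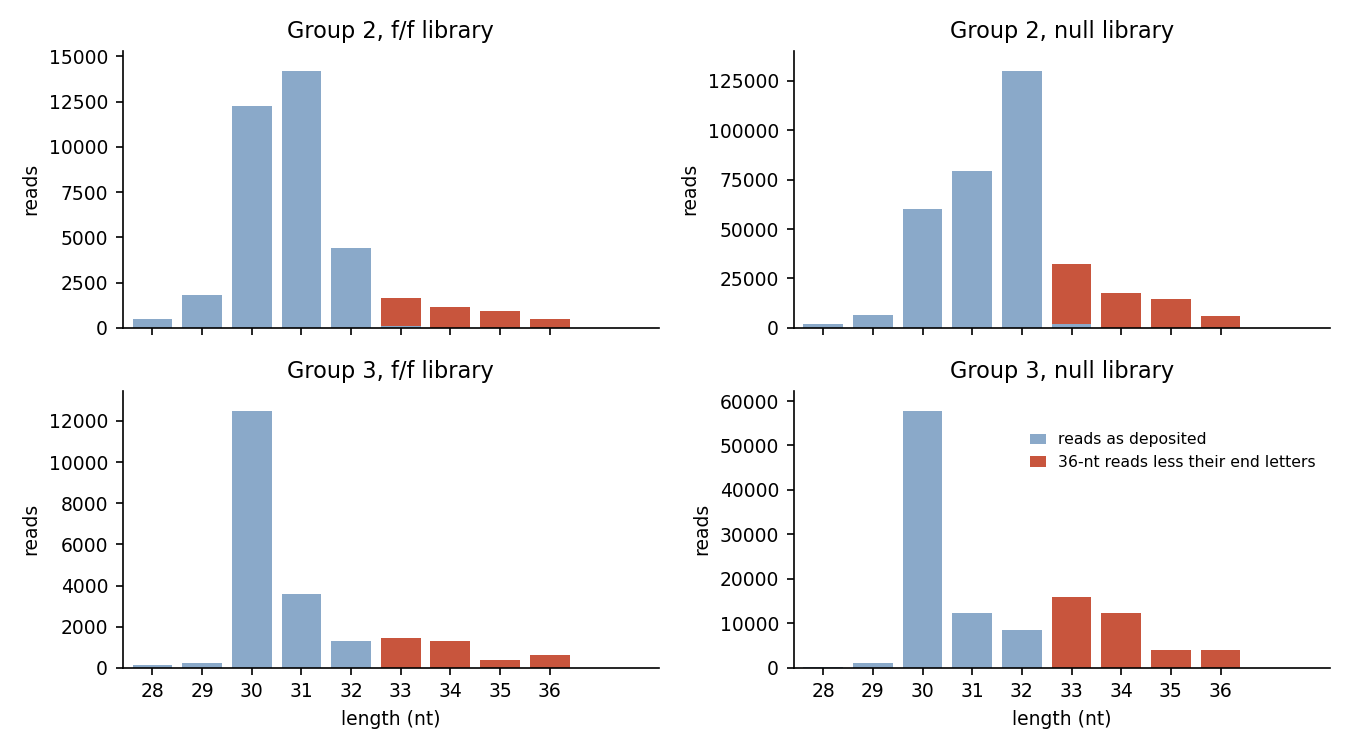
Reads (y axis) by length in nt (x axis) for group 2 (top) and group 3 (bottom) in the f/f (left) and null library (right); blue bars are reads as deposited and red bars are 36-nt member reads placed at the length left without their end letters. The red bars stand at 33 to 36 nt, where deposited reads are few or absent, for example 30227 reads of group 2 at 33 nt in null; the y axes differ between panels.

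The leading groups covered a wide range of ratios. Group 1 had 38788 reads in f/f and 96438 in null, 3901 and 15328 CPM, 3.93-fold higher in null (3.88 to 3.98). Group 2 had 4121 and 68176 reads, 26.1-fold higher (25.3 to 27.0), and group 8, its 1-base relative, had 427 and 10700, 39.6-fold (35.95 to 43.7). Both belong to a family of 395 members in 91 groups, joined by overlap or by a difference of 1 base, which was 24.7-fold higher in null as a sum (24.1 to 25.4).

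Group 4 had 1173 and 26565 reads, 35.8-fold higher in null (33.8 to 38.0), and group 9, shifted by 1 base, had 275 and 7775, 44.7-fold (39.6 to 50.6). Both hold TGATGA, the core letters of the C box of many snoRNAs. Group 5 had 1185 and 23881 reads, 31.9-fold higher (30.05 to 33.8). Group 6 had 2726 and 10589 reads, 6.14-fold higher (5.89 to 6.41).

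Group 7 was the most even of the leading groups, with 5193 reads in f/f and 6137 in null, a ratio of 1.87 (1.80 to 1.94). It shares a stretch with group 1, and its reads begin further along that sequence. The shorter reads that begin as group 7 were lower in null, at a ratio of 0.610 (798 f/f and 308 null reads), and most of them had 33 nt. Group 1 and group 7 belong to a family of 351 members in 120 groups that held 49.3% of the f/f and 21.1% of the null member reads, 3.71-fold higher in null (3.67 to 3.75).

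Group 11 had 2058 reads in f/f and 5006 in null, 3.84-fold more in CPM (3.65 to 4.05), and group 14 had 1385 and 4109, 4.69-fold (4.41 to 4.99). Some members of group 11 broke off into a run of A at different points, such as this pair, of which the first had 134 reads in f/f and 206 in null and the second 86 and 228, shown because the bases up to the run are those of the leading sequence.
group 11, rank 3: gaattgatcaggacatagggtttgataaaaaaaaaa
group 11, rank 5: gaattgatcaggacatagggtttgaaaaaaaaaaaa
A run of 10 or more A was present in 234 members (3.93%), with 5231 f/f and 19785 null reads, and in 2 matched sequences (0.254%).

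Among groups with 200 or more reads, the highest ratios belonged to group 176, with 1 f/f and 312 null reads, group 242, with 1 and 224, group 177, with 2 and 308, and group 133, with 3 and 421. With so few f/f reads these ratios are wide: that of group 133 was 222 (75.4 to 1080). Group 177 also had shorter reads, 28 in f/f and 2074 in null, a ratio of 117, and belongs to the family of group 2.

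Among the same groups of 200 or more reads, the lowest ratios lay near snRNAs and a mitochondrial tRNA. Group 161 had 273 f/f and 72 null reads, a ratio of 0.417 (0.317 to 0.542), and its first 32 nt match the U1 snRNA genes, which bind the 5′ splice site, Rnu1a1 among them (chromosome 11, 87422867 to 87423030, plus strand, GRCm38, as are all positions here). Group 212, 1 base longer at the 5′ end of the same RNA, had 179 and 73 reads, 0.645 (0.484 to 0.851). Group 183 had 239 and 67 reads, 0.443 (0.333 to 0.583), and its first 33 nt match U2 snRNA genes, which bind the branch point, such as Rnu2-10 (chromosome 11, 101658238 to 101658428, plus strand). Group 140 had 282 and 113 reads, 0.633 (0.505 to 0.790), and its first 31 nt match mt-Tv, the mitochondrial valine tRNA (chromosome M, 1025 to 1093, plus strand). The U1 and U2 genes have near-identical copies, so the copy of origin is uncertain. These 4 sequences are shown because they ran against the common direction; the capitals mark the end letters, and in group 183 and group 140 the letters CCA stand before them.
group 161: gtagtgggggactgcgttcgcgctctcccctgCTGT
group 212: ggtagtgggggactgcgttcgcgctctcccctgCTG
group 183: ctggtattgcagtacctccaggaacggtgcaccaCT
group 140: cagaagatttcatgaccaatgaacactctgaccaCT

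Looser comparisons with the annotation left most members without a likeness. With 1 mismatch in sense 662 members matched (11.1%), and with 2 mismatches 443 (7.44%). In antisense 34 matched without a mismatch (0.571%) and 80 with 1 or 2 (1.34%). No match with up to 2 mismatches on either strand was found for 4738 members (79.5%). In 1063 members (17.8%) the first 30 nt or more matched in sense, and in 1541 (25.9%) the first 18 nt or more. Neither a match of up to 2 mismatches nor one of the first 18 nt in sense was found for 3977 members (66.8%). These had 81295 reads in f/f and 435101 in null, a ratio of 8.46 (8.40 to 8.52). A looser match describes likeness and does not fix the gene of origin.

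Members whose first 30 nt or more matched a transcript were sorted by the class of that transcript. SnoRNAs had the most members, 311 in 181 groups, with 4711 reads in f/f and 27244 in null, a ratio of 9.14 (8.86 to 9.43). Of these groups 158 were more than 2-fold higher (87.3%) and 4 lower (2.21%), near the 91% and 1.76% of all 36-nt groups, and 272 of the 311 members ended in letters of CTGTA. Snord69, within the span of Gnl3 (chromosome 14, 31014287 to 31014366, minus strand), had 983 and 5600 reads, 9.004-fold (8.41 to 9.65). Its leading sequence, group 17, is identical to the annotation but for the last base. Snord100, within Rps12 (chromosome 10, 23785750 to 23785823, minus strand), had 623 and 3421 reads, 8.68-fold (7.97 to 9.47), and is the nearest RNA of group 18. Snord95, within Rack1 (chromosome 11, 48803139 to 48803206, plus strand), had 234 and 1600 reads, 10.8-fold (9.42 to 12.4). The spread among snoRNAs was wide. Snord35b (chromosome 7, 45123025 to 45123111, minus strand) had 15 and 288 reads, 30.3-fold (18.1 to 54.9), and Snord42b (chromosome 11, 78183056 to 78183124, minus strand) had 350 and 440, 1.99-fold (1.72 to 2.29).

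Y RNAs, small noncoding RNAs bound by the Ro protein, were led by Rny1 (chromosome 6, 47788069 to 47788180, minus strand). It had 85 members with 3566 reads in f/f and 33636 in null, a ratio of 14.9 (14.4 to 15.4). Rny3 (chromosome 6, 47781624 to 47781725, plus strand) had 22 members with 55 and 1123 reads, 32.3-fold (24.6 to 43.1). The RNA of the signal recognition particle, Rn7s1 (chromosome 12, 69159295 to 69159594, plus strand) and its copy Rn7s2, which these reads cannot separate, was nearly even, with 618 and 514 reads, 1.31-fold (1.17 to 1.48). The class that holds these RNAs and the Y RNAs had 126 members with 4255 f/f and 35423 null reads. These were fewer f/f reads but more null reads than those of the snoRNA class.

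Mitochondrial rRNAs had 87 members, 12.1-fold higher in null (11.1 to 13.1), with 28 of 30 groups more than 2-fold higher (93.3%, beside 91% of all 36-nt groups) and 0 lower. Within these, mt-Rnr2, the large subunit RNA (chromosome M, 1094 to 2675), had 531 and 3301 reads, 9.83-fold (8.96 to 10.8), and is the nearest RNA of group 25. The small subunit RNA mt-Rnr1 (70 to 1024) had 150 and 1902 reads, 20.04-fold (16.96 to 23.8). Mitochondrial tRNAs had 182 members in 90 groups, of which 70 were higher (77.8%, beside 91% of all 36-nt groups) and 2 lower (2.22%, beside 1.76%), 4.87-fold as a sum (4.65 to 5.10). They differed among themselves. The proline tRNA mt-Tp (15356 to 15422, minus strand) was 16.8-fold higher (13.1 to 21.9), with 69 and 735 reads, and the methionine tRNA mt-Tm (3845 to 3913) 9.58-fold (8.60 to 10.7), with 387 and 2345. Lower ratios were those of mt-Te, the glutamate tRNA (14071 to 14139, minus strand), at 2.65-fold (2.35 to 2.99), with 441 and 739, and mt-Tv at 1.12-fold (0.996 to 1.27), with 645 and 459. Of these 4, only the interval of mt-Tv included an equal level.

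The snRNA class had 38 members and was the least shifted apart from the rRNA class below, at 2.24-fold (2.08 to 2.41) with 1213 f/f and 1717 null reads. Of its 26 groups, 16 were higher (61.5%, beside 91% of all 36-nt groups) and 6 lower (23.1%, beside 1.76%). Members near U1 genes had 683 and 320 reads, a ratio of 0.741 (0.646 to 0.847). The rRNA class had 18 members, all nearest to the 5S rRNA gene Rn5s and its copies, with 164 and 154 reads, 1.48-fold (1.18 to 1.86). The annotation lacks part of the precursor of the other rRNAs, so pieces of those may lie outside this class. Its ratio does not describe rRNA as a whole. The 10 members near the annotated nuclear tRNA genes had 147 and 3233 reads, 34.8-fold (29.5 to 41.3); 9 of them lay at n-TStga1, named as a tRNA (chromosome 13, 23518142 to 23518250, plus strand), and equally at the predicted miRNA Gm44456 (chromosome 13, 21924928 to 21925016, minus strand), so their copy of origin is uncertain. Other predicted miRNA genes had 17 members with 62 and 1151 reads, 29.3-fold (22.7 to 38.5). All remaining transcripts, mRNAs and long noncoding RNAs among them, had 212 members with 680 and 4430 reads, 10.3-fold (9.50 to 11.2).

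Some members matched a transcript annotated as rRNA only on the strand opposite to the annotated one. Group 21 had 420 reads in f/f and 3345 in null, 12.6-fold more in CPM (11.4 to 13.97), and group 23, 1 base further on, had 564 and 2794, 7.83-fold (7.15 to 8.59). Both match CT010467.1, annotated as rRNA on the minus strand (chromosome 17, 39846353 to 39848827), in antisense without a mismatch. Within that span Gm42418, a long noncoding RNA, is annotated on the plus strand (39846958 to 39848788). The annotated strand was taken as given, and whether these reads are antisense to the rRNA itself was not tested. Group 21 and group 23 are shown because an exact sense match would have made them no members.
group 21: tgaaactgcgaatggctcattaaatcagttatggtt
group 23: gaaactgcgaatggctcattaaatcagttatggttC

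Short motifs marked further differences from matched sequences. GTTCGA, which occurs in the T loop of tRNAs, was in 485 members (8.14%) and in 9 of 786 matched sequences (1.15%); its members were 15.8-fold higher in null (15.2 to 16.5). CCA before letters of CTGTA stood in 289 members (4.85%) and 1 matched sequence (0.127%). TGGC, part of the A box of tRNA genes, differed less, at 12.9% and 10.6%. TGATGA, chosen after values were seen, was in 647 members (10.9%) and 147 matched sequences (18.7%), and its members were 24.5-fold higher in null (23.8 to 25.4). Only the strand of the read was searched, and a match is no proof of the RNA's class. Members began with G more often, 35.4% against 24.6%, and their median GC content was 50% against 44.4%. Members of 1 family share their sequence, so these shares do not rest on independent sequences.

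Members of miRNA hairpins, singled out after their values were seen, were few, and most of their reads came from null. In 62 members the first 28 nt or more lay in a hairpin with a Mir symbol. Together these held 78 reads in f/f and 1368 in null, a ratio of 27.7 (22.1 to 35.3). Mir143 went the other way, with 3 members of 72 f/f and 16 null reads, a ratio of 0.351 (0.191 to 0.610). The other 59 members had 6 reads in f/f and 1352 in null, a ratio of 356 (163 to 972). This ratio leaves out the hairpin that ran against the rest. Of these 59 members 55 had no f/f read, beside 2167 of all 5957 members (36.4%). They reached the minimum of reads through null alone or nearly so, which fixes their direction. Matched 36-nt sequences in such hairpins, 47 in all, had 142 and 1965 reads, 21.9-fold (18.4 to 26.1).

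In 24 hairpins of the RefSeq table (GRCm38) the members began at a mature miRNA and ran 8 to 14 nt beyond its 3′ end into the hairpin, where Dicer normally cuts the loop away. The most read members of 8 hairpins follow; capitals mark the hairpin bases that follow the mature miRNA, and the lower-case letters after them are those that no longer match the hairpin. Where a hairpin base and an end letter are the same, the base was counted to the hairpin.
Mir199a-2: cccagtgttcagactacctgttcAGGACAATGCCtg
Mir21a: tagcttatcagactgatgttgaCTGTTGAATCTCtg
Mir322: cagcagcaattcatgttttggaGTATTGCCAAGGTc
Mir31: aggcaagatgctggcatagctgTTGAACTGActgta
Mir182: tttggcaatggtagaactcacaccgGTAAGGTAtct
Mir125b-1: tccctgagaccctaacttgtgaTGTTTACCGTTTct
Mir106b: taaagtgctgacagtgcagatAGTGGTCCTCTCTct
Mirlet7c-2: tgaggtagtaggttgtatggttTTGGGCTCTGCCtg
Mir199a-2 (chromosome 1, 162217814 to 162217923, plus strand) had 0 f/f and 172 null reads, at least 90.6-fold higher. Mir21a (chromosome 11, 86584067 to 86584158, minus strand) had 1 and 160 reads, and Mir322 (chromosome X, 53054255 to 53054349, minus strand) had 1 and 154. Mir31 (chromosome 4, 88910557 to 88910662, minus strand) had 0 and 108, and Mir182 (chromosome 6, 30165918 to 30165992, minus strand) had 0 and 92. Mir125b-1 (chromosome 9, 41581926 to 41582002, plus strand) had 1 and 72, Mir106b (chromosome 5, 138165737 to 138165818, minus strand) 0 and 65, and Mirlet7c-2 (chromosome 15, 85706603 to 85706697, plus strand) 0 and 28. Of the 24 hairpins, 20 had no f/f read. Mir143, which ran the other way, is not among these 24.

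Reads of 18 to 35 nt with the same first 15 nt, which include the mature miRNA, were lower in null for most of these hairpins. Those that begin as Mir21a had 275042 f/f and 18544 null reads, a ratio of 0.107. For Mir199a-2 they had 204215 and 10943 reads, 0.0847, and for Mir31 46582 and 2677, 0.0908. For Mir125b-1 they had 234273 and 1564 reads, 0.0106, and for Mirlet7c-2, together with other let-7 genes of the same start, 1555172 and 9898, 0.0101. For Mir182 they had 848 and 1499 reads, 2.79-fold higher in null. The 24 hairpins have 22 different starts, of which 16 had shorter reads more than 2-fold lower in null, 3 within 2-fold and 3 higher (Mir182, Mir582 and Mir350). Shorter reads were counted by start alone, so the count of any hairpin can include reads of other genes with that start. The 36-nt members of these hairpins reached 10 reads through null alone or nearly so, which fixes their own direction.

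**Figure D5:**
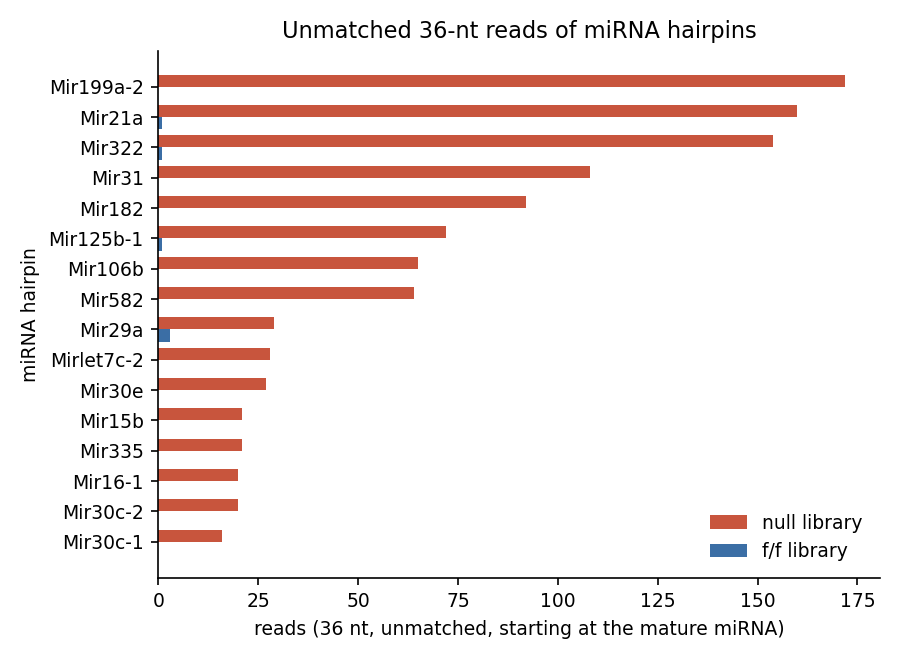
Reads (x axis) of unmatched 36-nt members that begin at a mature miRNA, for the 16 hairpins with most reads (y axis), in the null (red) and f/f library (blue). Null reads run from 16 to 172 per hairpin, and f/f reads from 0 to 3. Mir143, with 72 f/f and 16 null reads, is not in the set drawn from.

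Some reads join 2 mature miRNAs; these too were singled out after their values were seen. A member with the 22 nt of miR-22-3p followed by the first 14 nt of miR-21a-5p had 137 f/f reads and 0 null reads (group 359), and one joining miR-125b-5p to miR-26a-5p had 15 and 0. Capitals mark the second miRNA.
miR-22-3p with miR-21a-5p: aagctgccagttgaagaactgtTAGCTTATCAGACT
miR-125b-5p with miR-26a-5p: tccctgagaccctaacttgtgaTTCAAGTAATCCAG
Among all 36-nt reads, whatever their count, 47 sequences had this form, with 241 f/f reads and 0 null reads; 25 of them were read once. How the pairs were joined was not tested, and mature miRNAs were themselves more frequent in f/f.

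Shorter reads, which were not counted in the choice of members, gave a further measure of the groups. This measure is not independent of that choice. The shorter reads came from the same libraries, and the groups were chosen on member reads that were mostly from null. How much of the direction below follows from that choice was not tested. Of the 2955 groups, 1586 (53.7%) had 10 or more reads of 18 to 35 nt with the same first 15 nt, and 813 had none. Of the 1586, 1476 (93.1%) were more than 2-fold higher in null and 31 (1.95%) lower, against 71.7% and 19.5% of all groups of 18 to 34 nt, with a median log2 ratio of 3.16. As a sum these reads ran the other way, with 4458388 in f/f and 1887467 in null, a ratio of 0.669 (0.668 to 0.670). Without the groups that begin as a mature miRNA the sum was 5.995-fold higher in null (5.98 to 6.01), an alternative chosen after seeing the data. Group 5 had shorter reads mostly of 20 nt in null, 12197 of 29805, and group 11 had 26344 f/f and 92684 null shorter reads, 5.56-fold higher. Group 1 had almost none, 306 in f/f and 789 in null, and group 17 had 0 and 27.

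Many members were close copies of one another. Joined by a shifted overlap of 20 nt or more or by a difference of 1 base, the 5957 members fell into 1654 families, of which 1138 had 1 member and 73 had 10 or more. By shifts 3236 members overlapped another, and 3464 lay 1 base from another. Among the latter, 1915 had at least 10-fold fewer reads than their neighbour, 100699 reads in all. In group 1, for instance, the second member had 771 f/f and 2932 null reads beside 32975 and 74535 of the first. Whether such members are sequencing errors, modified bases or other gene copies was not tested.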

How the data were processed

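The authors deposited raw read counts: a file holds 1 line for each distinct sequence and its number of reads, with neither genes nor coordinates. The reads were handled with mm9 as genome build, per the submitters' processing notes. Tools for trimming and alignment were not named in the sources used here. Per the labels' protocols, RNA of 15 to 50 nt was cut from a gel and cloned by the Illumina small RNA protocol.

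All 36-nt sequences with 10 or more reads summed were compared with GENCODE M21 transcripts (GRCm38), on both strands and with up to 2 mismatches, and for the longest stretch from the first base that matches in sense. CPM were taken over all reads of a file. Ratios carry exact conditional intervals, shares exact Clopper-Pearson intervals, both at 95%. A side at 0 reads was set to a floor of 3 counts. With 1 library per genotype, a 2-fold difference stood in for a call. Named were the 8 groups with most reads in f/f and in null, the 4 lowest and 4 highest ratios among groups with 200 or more reads, and the 3 leading groups of each kind of looser match, of which a selection is printed. Mature miRNAs and hairpins came from RefSeq (GRCm38). The end letters CTGTA, the motif TGATGA, miRNA hairpins, joined miRNAs and single snoRNAs, Y RNAs and mitochondrial RNAs were chosen after their values were seen. Members and lists were chosen with earlier results of these data known. The files hold 0 columns of other samples.

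The matching was checked on simulated reads drawn from 2000 transcripts, in which neither genotype nor library played a part. At 1 mismatch 200 of 200 were found, at 2 mismatches 200 of 200 and after shuffling 0 of 200. Python 3.11.15, numpy 2.4.6, scipy 1.17.1 and matplotlib 3.10.9 were used. Alternatives changed the minimum of reads, the matching rule, the length that defines a group, the scale and the length of shorter reads.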

Additional observations from a re-analysis of the deposited data

How the results depend on the processing

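No paired analysis was possible because each genotype had 1 library, and no replicate could be left out. With a minimum of 5 reads there were 16879 members, 9.10-fold higher in null as a sum, with 9298 groups higher, 90 lower and 2792 with shorter reads. With a minimum of 100 reads there were 647 members, 8.25-fold higher, with 355 groups higher, 2 lower and 292 with shorter reads. The ratio of the members was 8.52 without members that match with 1 mismatch or in antisense. It was 8.49 without those whose first 30 nt match, when 23 groups were lower, and 8.41 without those that match once their end letters are removed, a choice made after seeing the data. It was 11.5 without group 1. The scale mattered most: per 36-nt read the ratio was 1.01 (1.002 to 1.02), with 752 groups higher and 493 lower, and per snoRNA and snRNA read it was 2.03, with 1382 higher and 249 lower.

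The sum of shorter reads, at 0.669, depended on which groups and lengths it held. It turned to 1.83 with a minimum of 100 reads, to 8.58 with shorter reads of 28 to 35 nt and to 5.995 without groups that begin as a mature miRNA, the last chosen after seeing the data. It was 0.626 with a minimum of 5 reads, 0.664 without 1-mismatch and antisense members, 0.939 without members whose first 30 nt match, and 0.764 without members that match once end letters are removed. With groups defined by 12 nt it was 0.676 and by 20 nt 0.660. Per 36-nt read it was 0.0781 and per snoRNA and snRNA read 0.157. The cause of these shifts was not tested. Depth limits the groups with few f/f reads: the interval of group 133, with 3 f/f reads, ran from 75.4 to 1080.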
